A study of Mus musculus with 16 samples.

Results

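The comparison described here is that of B16F10 melanoma tumors treated with α-KG + anti-PD1 with tumors treated with anti-PD1 alone, so the groups differ by the addition of α-KG to the antibody. Its members are the genes with at least 0.5 FPKM (fragments scaled to transcript length and library size) in at least 4 of the 16 tumors of the series. Of the 18929 genes listed, 12850 met this minimum and were tested, and 6079 did not. B16F10 is a transplantable melanoma line of C57BL/6 origin. All tumors grew from B16F10 cells under the skin of female C57BL/6 mice aged 7 to 8 weeks, and treatment began at a tumor volume of about 50 mm3. The 4 anti-PD1 tumors received the antibody against PD-1, and the 4 α-KG + anti-PD1 tumors received the same antibody with α-KG at 100 mg/kg. The other 8 tumors, 4 given vehicle (corn oil with an isotype control antibody) and 4 given α-KG alone, entered the fit and show what α-KG did without the antibody. Treatment lasted 9 to 11 days, and the 4 tumors of a group are independent samples. What control injections the single-agent groups received is not given in the sources used here.

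PD-1 is an inhibitory receptor of activated T cells, and its ligand PD-L1, encoded by Cd274, is carried by tumor and myeloid cells. Antibodies that block PD-1 let T cells already in the tumor go on responding, and interferon gamma released by T and NK cells then induces antigen presentation genes, chemokines and PD-L1 itself through JAK kinases, STAT factors and IRF1. α-Ketoglutarate (α-KG) is an intermediate of the citric acid cycle and a co-substrate of a family of dioxygenases, among them the TET enzymes, which oxidize 5-methylcytosine in DNA, and the JmjC histone demethylases. In whole tumor RNA, a gene can be higher because more cells express it or because each cell holds more of its RNA, and these cannot be told apart here.

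The melanocyte genes that mark B16F10 cells were abundant in all 8 tumors, with Pmel at 2042 to 2812 FPKM and Mlana at 857 to 1168 FPKM. The FPKM of all genes summed to 549740 to 651386 in the anti-PD1 tumors and 514180 to 527812 in the α-KG + anti-PD1 tumors. Hemoglobin genes took 4.23% to 22.2% of that sum in the former and 2.09% to 2.23% in the latter, and FPKM is relative to the whole library. After the hemoglobin genes were left out of the sum used for rescaling, 1693 genes were called, 1533 higher and 160 lower. The deposited values carry no read counts, so the depth is unknown. Log2(FPKM + 1) values of tumors of the same group correlated across genes with Pearson's r of 0.977 to 0.993 (anti-PD1) and 0.967 to 0.989 (combination).

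Adding α-KG to the antibody gave far more higher than lower genes on the deposited scale. With limma on log2(FPKM + 1), 1987 genes (15.5% of those tested) had a Benjamini-Hochberg adjusted p under 0.05 and are called below. Of these, 1819 were higher (14.2%) and 168 were lower (1.31%) in the combination tumors. In the lists below, a gene that rose or fell is one called higher or lower. Each list count is to be read beside 14.2% higher and 1.31% lower over all genes tested. A log2 change of at least 1 in size was met by 383 of the higher and 12 of the lower genes. In 1745 genes (13.6%) all 4 combination tumors lay above all 4 anti-PD1 tumors, and in 384 (2.99%) they lay below them. The median log2 change over all genes tested was 0.12, and 68.8% of genes were above 0. Quantile normalization brought the median to -0.07 and the calls to 721 higher and 1082 lower, and centering each tumor on its median gave -0.11 with 802 higher and 1968 lower. Neither scale had an excess of higher genes. Rescaling to the same FPKM sum moved the median to 0.28, with 4198 higher and 36 lower.

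**Figure D1:**
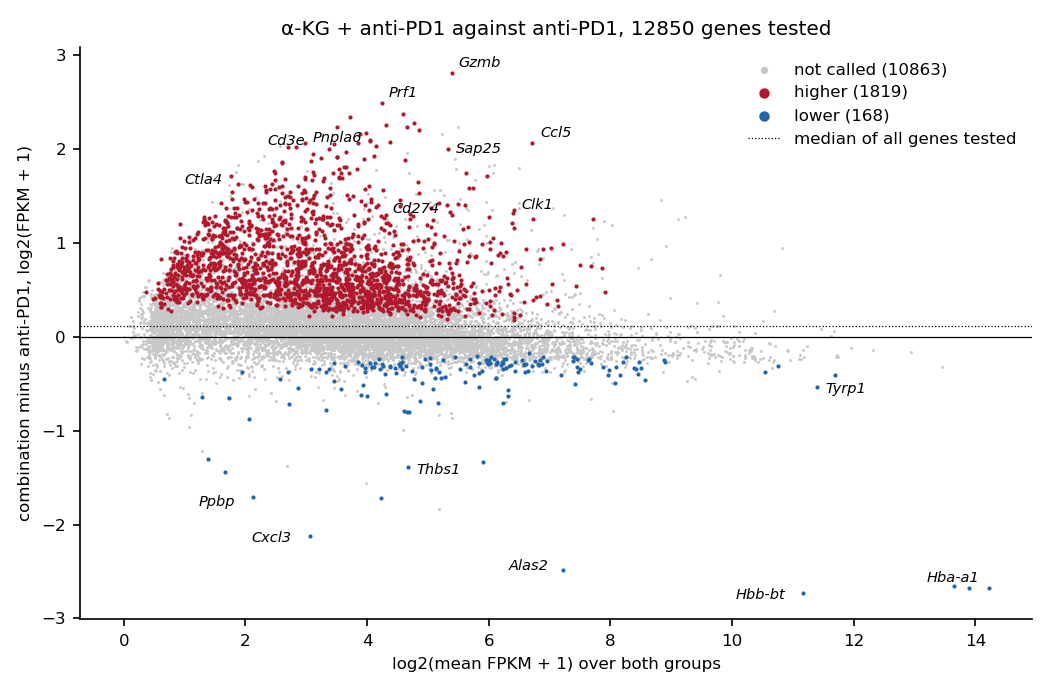
Change of each tested gene in log2(FPKM + 1), α-KG + anti-PD1 minus anti-PD1 (vertical axis), against its mean level over both groups (horizontal axis, log2 scale), with called genes in red (higher) and blue (lower). The higher genes spread over low and middle levels, while the hemoglobin genes stand alone at the bottom right and the melanocyte gene Tyrp1 is among the few abundant genes that are lower.

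The calls rested on single tumors to a large extent. Fitting the 8 tumors of the 2 groups alone gave 0 calls, although 4077 genes had an unadjusted p under 0.05 (4384 in the fit to 16 tumors). The smallest limma adjusted p was 0.0507, and 1807 of the 1987 called genes (90.9%) stayed under 0.1. Both fits hold these 8 tumors, so this overlap is not independent support. Leaving out anti-PD1 tumor 1 lowered the calls to 228, leaving out anti-PD1 tumor 4 to 316, leaving out combination tumor 3 to 350 and leaving out combination tumor 1 to 979. Without anti-PD1 tumor 2 there were 2937. A group of 214 genes was called whichever of the 16 tumors was left out, and 178 of these, 164 higher and 14 lower, were also called under all 4 scalings. In each of the lists described below as cytotoxic effectors, homing genes, regulatory T cells, NK cells, leukocytes, MHC class I, checkpoint ligands, T-cell chemokines, gamma-chain receptors, dendritic cells, TET enzymes, histone demethylases and glycolysis, at most 1 gene was called when any of anti-PD1 tumors 1 and 4 and combination tumors 1 and 3 was left out. The 178 genes are marked below as called throughout, which does not cover the fit to 8 tumors.

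**Figure D2:**
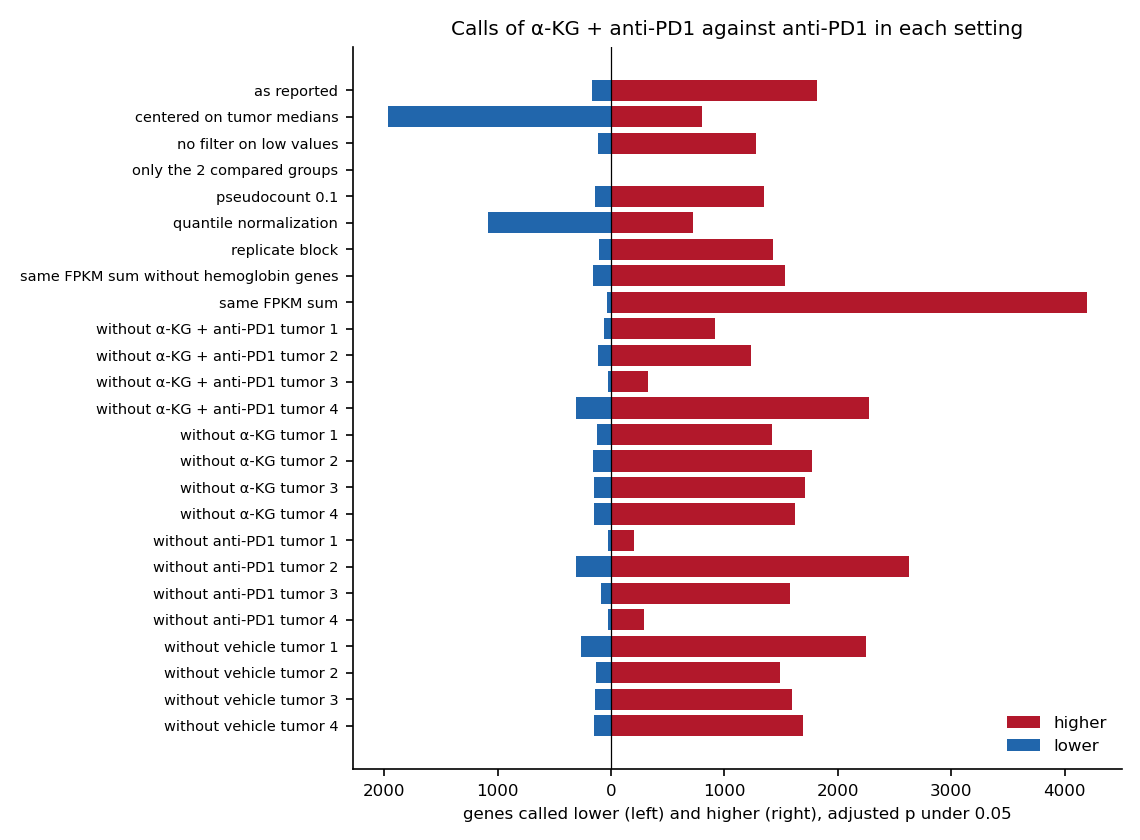
Number of genes called higher (red, to the right) and lower (blue, to the left) in α-KG + anti-PD1 against anti-PD1 tumors, for the reported fit and for each other setting, where each row that starts with "without" leaves out 1 tumor. Calls run from 0 in the fit to the compared groups alone to 4234 after rescaling to the same FPKM sum, and both centering and quantile normalization turn most calls to lower.

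The tumors that stood highest were not the same for all genes. Of the 1819 genes, combination tumor 2 had the highest level in 42.4%, tumor 1 in 27.7% and tumor 3 in 27.5%, and tumor 4 had the lowest in 55.6%. The same shares over all genes tested were 30.4%, 27.0%, 21.7% and 27.8%. On the antibody side, anti-PD1 tumor 2 was the highest in 69.2% of these genes and tumor 1 the lowest in 78.6%. Over all genes tested the same anti-PD1 tumors were the highest in 41.3% and the lowest in 49.5%. Most T-cell and interferon genes named below were highest in combination tumors 1 and 3, and a further set, described after them, peaked in combination tumor 2.

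Genes of T cells were higher after the combination. Of 18 tested genes of the T-cell receptor complex and its co-receptors, 16 rose (88.9%, against 14.2% over all genes) and 0 fell. The median log2 change was 1.69 against 0.12 over all genes tested. Cd3e, an invariant chain of the T-cell receptor complex, was at 1.18, 2.37, 2.77 and 1.18 FPKM in anti-PD1 tumors 1 to 4 and at 25.6, 6.30, 19.8 and 2.37 FPKM in combination tumors 1 to 4. Combination tumors 1 and 3 stood far above all others, and tumor 4 lay within the anti-PD1 range. The log2 change was 1.95 (SE 0.51, limma adjusted p = 0.0246). Cd8a, the co-receptor of cytotoxic T cells, rose by 2.05 (SE 0.57, adjusted p = 0.0297), from a mean of 2.72 ± 1.82 to 17.2 ± 12.8 FPKM (SD, n = 4 tumors), and Cd4, that of helper T cells, by 1.07 (SE 0.32, adjusted p = 0.038). Cd3g and Thy1, a surface glycoprotein of T cells, had the largest rises of the list, 2.26 and 2.20. Zap70, the kinase that binds the activated receptor, rose by 1.86 (SE 0.43, adjusted p = 0.0175). It and Cd4 were the only members of the list whose groups did not overlap, a smaller share than the 13.6% of all genes with combination tumors all above. These calls depended on single tumors: 0 of the 18 genes were called without anti-PD1 tumor 1, anti-PD1 tumor 4 or combination tumor 3, and 1 without combination tumor 1, while the median stayed between 1.30 and 2.15.

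Of 19 cytotoxic effector genes tested, 9 rose (47.4%, against 14.2% over all genes) and 0 fell (median 1.45). Gzmb (chr14:56258836-56262334), which encodes the protease granzyme B, was at 2.26, 11.3, 17.1 and 3.27 FPKM in the anti-PD1 tumors and 139, 35.2, 107 and 12.8 FPKM in the combination tumors. The lowest combination tumor lay between the anti-PD1 tumors 2 and 3, and the log2 change was 2.81 (SE 0.73, limma adjusted p = 0.0245). Prf1, the pore-forming perforin, rose by 2.49 (SE 0.63, adjusted p = 0.023). Tnf, a cytokine of T cells and macrophages, had a different order: combination tumor 4 was its highest at 15.7 FPKM, against 7.40, 2.24 and 10.1 in tumors 1 to 3 and 0.89 to 1.96 in the anti-PD1 tumors, and its log2 change was 1.85 (SE 0.44, adjusted p = 0.0179). Leaving out anti-PD1 tumor 1 or 4 or combination tumor 3 left 0 of the 19 called, and leaving out combination tumor 1 left 1.

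Inhibitory receptors and the factors that set T-cell fate included 12 higher genes of 20 (60.0%, against 14.2% over all genes, median 0.88). There were 3 without combination tumor 1 and 1 without anti-PD1 tumor 1, anti-PD1 tumor 4 or combination tumor 3. Pdcd1, which encodes PD-1, rose by 1.90 (SE 0.54, limma adjusted p = 0.0331), Lag3, a receptor that binds MHC class II, by 2.00 (SE 0.51, adjusted p = 0.0232), and Tox, a factor of chronically stimulated T cells, by 1.60 (SE 0.43, adjusted p = 0.0278). Ctla4, an inhibitory receptor that competes for B7 ligands, was the one gene of this list called throughout; it was picked out after its values were seen. Its level was 0.36, 0.92, 0.94 and 0.59 FPKM in the anti-PD1 tumors and 8.17, 2.64, 5.49 and 2.44 FPKM in the combination tumors. The groups did not overlap, and the log2 change was 1.63 (SE 0.28, adjusted p = 0.00791). Among 6 tested markers of regulatory T cells, which also carry CTLA-4, 3 rose (50.0%, against 14.2% over all genes). Foxp3, their defining factor, went from 0.413 ± 0.206 to 1.85 ± 0.996 FPKM (adjusted p = 0.0139) and Tnfrsf4, the costimulatory receptor OX40, rose by 1.46 (adjusted p = 0.0232), both without overlap between groups.

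Of 9 genes tied to naive and memory T cells and their homing, 3 rose (33.3%, against 14.2% over all genes). Klf2, a factor that keeps lymphocytes and endothelium quiescent, was at 5.32, 6.37, 5.70 and 5.74 FPKM in the anti-PD1 tumors and 22.5, 7.86, 18.4 and 13.0 FPKM in the combination tumors. The anti-PD1 tumors were close together and all combination tumors lay above them; the log2 change of 1.19 (SE 0.22, limma adjusted p = 0.00912) was called throughout. Without the antibody, Klf2 was at 14.2 ± 1.51 FPKM in α-KG tumors, against 4.89 ± 0.910 FPKM in vehicle. Cxcr6, a chemokine receptor of tissue T cells, rose by 2.06 and Itgae, the integrin CD103, by 0.64. Il7r, the receptor of the survival cytokine IL-7, had a change of 0.22 (SE 0.34, adjusted p = 0.672).

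NK-cell markers had 4 of 8 tested genes higher (50.0%, against 14.2% over all genes, median 1.20). Klrk1, the receptor NKG2D, rose by 1.77 and Klrc1 by 1.61, both also found on CD8 T cells. Ncr1, a receptor more particular to NK cells, rose by 0.96 (SE 0.29, limma adjusted p = 0.0368) from levels of 0 to 0.58 FPKM. Summed over the NK list, the combination tumors held 90.8, 17.3, 80.2 and 7.47 FPKM and the anti-PD1 tumors 3.27 to 13.7 FPKM. B-cell and plasma-cell markers had 0 calls among 6 tested (median 0.37). Of 14 genes carried by all leukocytes, 6 rose (42.9%, against 14.2% over all genes). Ptprc, which encodes CD45, was at 3.27 to 9.02 FPKM in the anti-PD1 and 9.34 to 37.6 FPKM in the combination tumors (log2 change 1.61, SE 0.43, adjusted p = 0.026). Ptprcap, its associated protein, rose by 2.09.

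Ifng, the cytokine interferon gamma, was at 0.26, 1.63, 2.42 and 0.72 FPKM in the anti-PD1 tumors and 11.5, 4.37, 14.4 and 1.37 FPKM in the combination tumors, a log2 change of 1.74 (SE 0.46, limma adjusted p = 0.026). Combination tumor 4 lay inside the anti-PD1 range. Of 26 genes from the cytokine to its receptors, kinases, STATs, IRFs and inhibitors, 14 rose (53.8%, against 14.2% over all genes) and 0 fell (median 0.78). Of the 26, 2 to 4 were called without anti-PD1 tumor 1 or 4 or combination tumor 1 or 3. Irf1, the first transcription factor induced, rose by 1.75 (SE 0.56, adjusted p = 0.0478) and Socs1, the inhibitor of JAK kinases, by 1.81 (SE 0.51, adjusted p = 0.0309). The changes of Stat3 (0.30, SE 0.14, adjusted p = 0.138) and Jak2 (0.43, SE 0.19, adjusted p = 0.135) were not called.

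Genes induced by interferon gamma had 18 of 27 tested members higher (66.7%, against 14.2% over all genes) and 0 lower, with a median log2 change of 1.67. To show motifs tied to STAT and IRF factors, the 250 bases before the start of Irf1 and of 3 genes of the list are given. They are from RefSeq (GRCm38.p6, the mm10 build, 5′ to 3′ along the gene), in lower case. Capitals mark the GAS motif TTCNNNGAA (read the same on both strands) and the ISRE core GAAANNGAA or, on the opposite strand, TTCNNTTTC. Each promoter printed holds a match, while Acod1 and Pdcd1lg2 of the list hold none in these bases. Binding of these factors was not measured here.
Irf1 (chr11:53769764-53770013, + strand, GAS motif 90 bases before the start): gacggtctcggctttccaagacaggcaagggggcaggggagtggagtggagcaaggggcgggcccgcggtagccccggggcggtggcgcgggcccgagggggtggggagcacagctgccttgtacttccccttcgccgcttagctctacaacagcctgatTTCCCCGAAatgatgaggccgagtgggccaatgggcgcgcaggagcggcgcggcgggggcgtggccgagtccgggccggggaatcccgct
Gbp5 (chr3:142496684-142496933, + strand, GAS motifs 245 and 52 bases and ISRE core 164 bases before the start): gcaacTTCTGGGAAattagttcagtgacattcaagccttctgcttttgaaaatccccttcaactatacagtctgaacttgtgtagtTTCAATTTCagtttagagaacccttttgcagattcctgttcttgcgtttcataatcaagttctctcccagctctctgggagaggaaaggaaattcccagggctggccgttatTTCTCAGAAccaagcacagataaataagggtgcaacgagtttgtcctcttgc
Cd274 (chr19:29367188-29367437, + strand, ISRE core 76 bases before the start): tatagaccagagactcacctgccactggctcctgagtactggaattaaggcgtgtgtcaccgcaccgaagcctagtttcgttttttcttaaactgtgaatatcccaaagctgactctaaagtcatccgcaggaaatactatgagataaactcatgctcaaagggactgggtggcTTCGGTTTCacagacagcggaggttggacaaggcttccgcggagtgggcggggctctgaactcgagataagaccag
Cxcl9 (chr5:92328080-92328329, - strand, ISRE core 175 bases before the start): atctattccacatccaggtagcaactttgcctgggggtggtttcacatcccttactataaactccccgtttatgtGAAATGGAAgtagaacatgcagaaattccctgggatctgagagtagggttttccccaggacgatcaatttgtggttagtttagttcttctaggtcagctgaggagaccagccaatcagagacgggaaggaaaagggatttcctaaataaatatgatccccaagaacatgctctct

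A start was given for 10335 of the genes tested (80.4%), and the one with the lowest coordinate was taken where there were several. Of the 17 genes of the interferon-gamma-induced list with a start, 47.1% held a GAS motif and 76.5% an ISRE core in these 250 bases, against 6.28% and 6.31% of all tested genes. The list was written from genes known to respond to interferon. Over all 1465 higher genes with a start, 6.76% held a GAS motif and 7.51% an ISRE core, and of 144 lower genes 4.86% and 7.64% did. A match is only a run of letters, and the shares are descriptions without a test.

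Within groups these genes varied widely. Gbp4, an interferon-induced GTPase of a cluster of similar genes among which reads may have been divided, was at 0.98, 16, 16.8 and 1.56 FPKM in the anti-PD1 tumors and 58.1, 29.7, 51.4 and 10.7 FPKM in the combination tumors. Anti-PD1 tumors 1 and 4 were near the vehicle mean of 1.12 ± 1.33 FPKM, and anti-PD1 tumors 2 and 3 lay above combination tumor 4. Its log2 change was 2.37 (SE 0.71, limma adjusted p = 0.037). Gbp6 rose by 2.24 (adjusted p = 0.0441) with the same order, and Cxcl9, the chemokine that draws CXCR3-bearing T cells, by 1.89 (SE 0.57, adjusted p = 0.038). Gbp2 had a change of 1.67 with a larger error (SE 0.75, adjusted p = 0.129). Without anti-PD1 tumor 1, anti-PD1 tumor 4 or combination tumor 3, 0 of the 27 genes were called, and 1 was called without combination tumor 1.

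Of the 27 tested genes of that list, 3 had no overlap between groups, a smaller share than the 13.6% of all genes with combination tumors all above. Cd274, whose promoter is printed above, was one of them. It was at 6.49, 13.9, 12.4 and 7.85 FPKM in the anti-PD1 tumors and 37.7, 19.9, 33.5 and 15.1 FPKM in the combination tumors, a log2 change of 1.27 (SE 0.31, limma adjusted p = 0.0193). The α-KG tumors, without the antibody, were already at 27.2 ± 5.19 FPKM and the vehicle tumors at 4.41 ± 2.24 FPKM. Nos2, the inducible nitric oxide synthase of myeloid cells, was also higher in α-KG than in vehicle tumors, with 3.10 ± 1.57 FPKM in anti-PD1, 17.7 ± 14.9 in combination, 25.7 ± 12.2 in α-KG and 0.733 ± 0.476 in vehicle tumors, and its log2 change was 1.92 (SE 0.50, adjusted p = 0.0249). Of 17 checkpoint ligands and costimulatory genes, 6 rose (35.3%, against 14.2% over all genes, median 0.52). Among them was Cd226, an activating receptor of T and NK cells, which rose by 1.06.

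Among 29 antiviral genes of the type I interferon response 12 rose (41.4%, against 14.2% over all genes, median 0.92), 4 after quantile normalization and 27 at the same FPKM sum. Without anti-PD1 tumor 1, anti-PD1 tumor 4 or combination tumor 3, 0 were called, and 1 was called without combination tumor 1. The largest rise was that of Oas2, a sensor of double-stranded RNA, from 0.82 to 5.63 FPKM to 6.81 to 13.3 FPKM without overlap (log2 change 1.56, SE 0.37, limma adjusted p = 0.0176). Oasl2 rose by 1.35, and Isg15, a ubiquitin-like modifier, was at 0.69 (SE 0.24, adjusted p = 0.0595). MHC class I presentation had 4 of 23 genes called (17.4%, against 14.2% called higher over all genes), all higher, with a median of 1.16. After centering 3 were higher and 3 lower. Tap1, the peptide transporter, was not called, with a change of 1.74 with an SE of 0.75 (adjusted p = 0.117) and B2m, the light chain, one of 0.95 with an SE of 0.49 (adjusted p = 0.183). H2-Q4 and H2-Q6 of this list, and H2-Q9 outside it, are class I genes that rose by 1.35, 1.88 and 2.23, without overlap between groups. H2-Q6 and H2-Q9 belong to a family of similar class I genes among which reads may have been divided, and H2-Q9 is listed at 0 in anti-PD1 tumor 1. MHC class II presentation had 1 of 12 called (8.33%, against 14.2% called higher over all genes), with a median of 1.15. It was the class II transactivator Ciita at 1.19 (adjusted p = 0.0404). The abundant members Cd74 (1.28, SE 0.68) and H2-Aa (1.19, SE 0.71) were not called.

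Of 13 T-cell chemokines and receptors 8 rose (61.5%, against 14.2% over all genes, median 1.10). Ccl5, a chemokine made by effector T cells, was at 11.2 to 59.0 FPKM in the anti-PD1 and 43.2 to 338 FPKM in the combination tumors (log2 change 2.06, SE 0.65, limma adjusted p = 0.0446). Ccl3, a chemokine made by T and myeloid cells and picked out after its values were seen, was at 21.8, 20.9, 27.8 and 27.7 FPKM in the anti-PD1 tumors and 74.8, 44.2, 130 and 72.8 FPKM in the combination tumors. The groups were well apart, and its log2 change of 1.58 (SE 0.31, adjusted p = 0.0105) was called throughout. Of 8 common gamma-chain cytokines and receptors 3 rose (37.5%, against 14.2% over all genes). They were led by Il2rb, the beta chain of the IL-2 and IL-15 receptors (2.28, SE 0.66, adjusted p = 0.0335), and Il21r (1.27). Ltb, lymphotoxin beta, and Septin1, a septin abundant in lymphocytes, rose by 1.87 and 1.74 and belonged to the 12 largest rises without overlap.

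**Figure D3:**
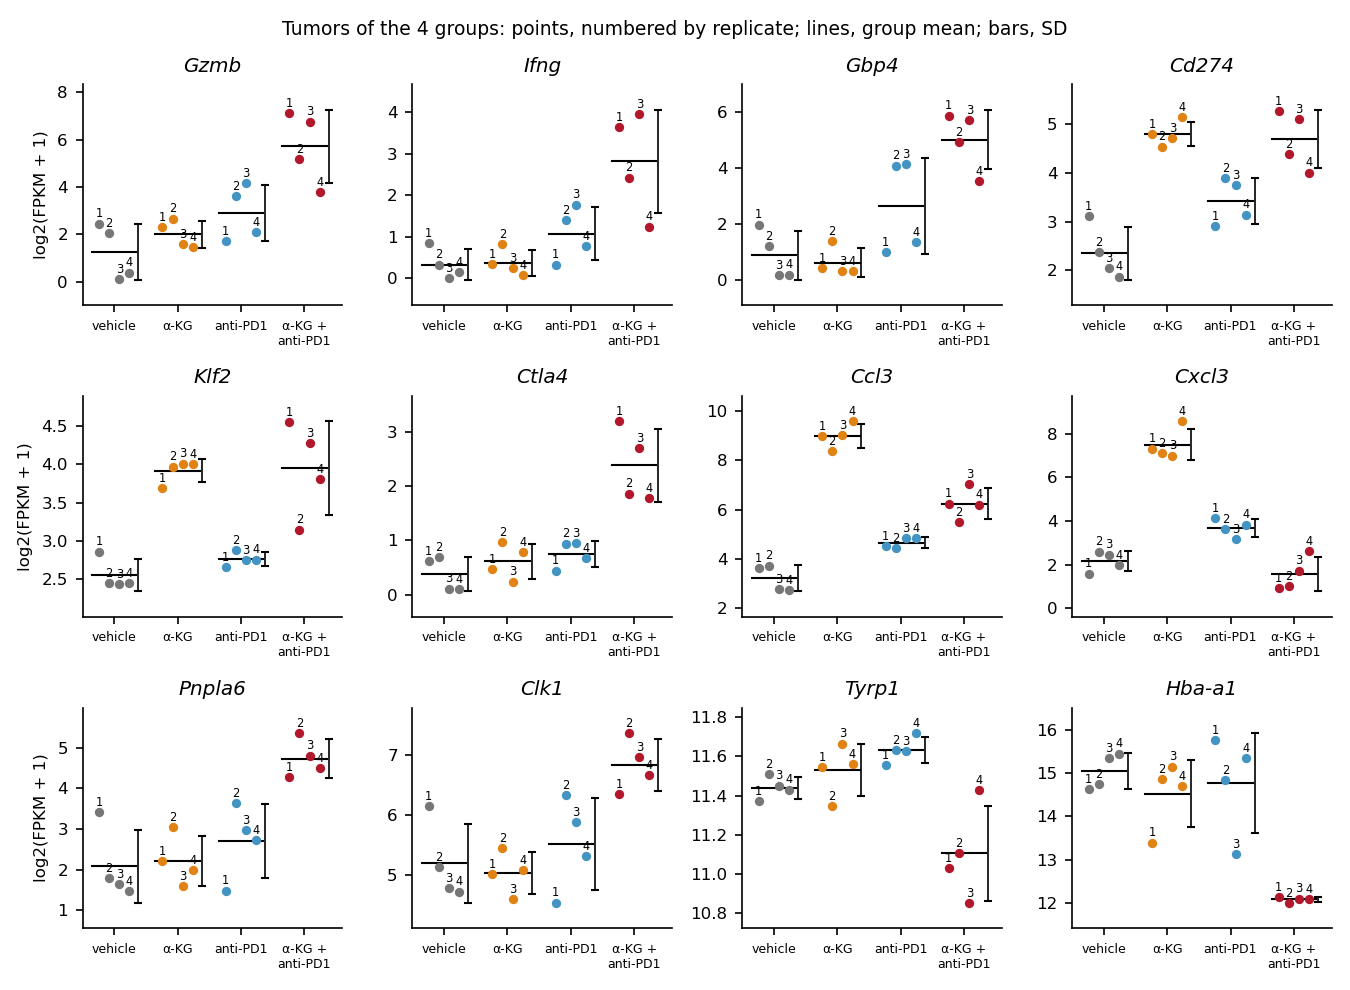
Level of 12 genes in log2(FPKM + 1) in each of the 16 tumors, grouped by treatment, with points numbered by tumor, lines at the group means and bars for the SD (n = 4). Gzmb, Ifng and Gbp4 are highest in combination tumors 1 and 3, Pnpla6 and Clk1 in combination tumor 2, Cd274, Klf2 and Ccl3 are also high in α-KG tumors, and Hba-a1 is at one low level in all 4 combination tumors.

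The set that peaked in combination tumor 2 held several of the largest rises without overlap. Pnpla6, a lysophospholipase (chr8:3515235-3544267), was at 1.80, 11.5, 6.82 and 5.67 FPKM in the anti-PD1 tumors and 18.4, 40.2, 27.0 and 21.7 FPKM in the combination tumors, a log2 change of 2.03 (SE 0.47, limma adjusted p = 0.017). Sap25, a component of the Sin3 corepressor complex, rose by 2.00 (SE 0.54, adjusted p = 0.0275) and Mid1, a microtubule-associated ubiquitin ligase, by 1.71 (SE 0.55, adjusted p = 0.0469). All 3 genes ranked the anti-PD1 tumors in the order 2, 3, 4, 1 and the combination tumors in the order 2, 3, 4, 1. Nrbp2, a pseudokinase, was called throughout, at 3.35, 9.05, 5.18 and 4.46 FPKM against 15.6, 29.4, 22 and 17.2 FPKM, with a log2 change of 1.79 (SE 0.25, adjusted p = 0.00691). Sdr39u1, of the short-chain dehydrogenase family, was another large rise called throughout (1.71, SE 0.27, adjusted p = 0.00791), from 0 to 1.34 FPKM to 2.35 to 5.64 FPKM, but was highest in combination tumor 1.

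The next 7 genes were picked out after their values were seen, because they rose, so they say nothing of any group of genes they belong to. Clk1, a kinase of SR splicing factors, was at 22.3, 79.0, 57.6 and 38.7 FPKM in the anti-PD1 tumors and 80.2, 163, 123 and 100 FPKM in the combination tumors. Its ranking was 2, 3, 4, 1 in both groups, and the log2 change was 1.32 (SE 0.36, limma adjusted p = 0.0288). Ccnl2, a cyclin of splicing speckles, rose by 1.58 (SE 0.44, adjusted p = 0.0303), Rsrp1 and Pnisr, arginine-serine-rich nuclear proteins, by 1.21 and 1.16, and Srsf5, an SR protein, by 0.95, each with its highest level in tumor 2 of both groups. Srrm2, a scaffold of the spliceosome, was called throughout at 36.3, 105, 70.3 and 47.0 FPKM against 124, 176, 168 and 116 FPKM (log2 change 1.26, SE 0.26, adjusted p = 0.0123). Luc7l3, a partner of the U1 particle, was called throughout too, with a change of 1.15 (SE 0.22, adjusted p = 0.01), and was highest in combination tumors 1 and 3. Vehicle tumor 1 was the highest of its group for Clk1 at 69.7 FPKM, against 25.4 to 34.1 FPKM in vehicle tumors 2 to 4.

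Myeloid genes had few calls. Of 22 monocyte and macrophage markers 0 were called by limma, with a median of 0.67, and 3 were higher at the same FPKM sum. The change was 0.80 for Adgre1, the F4/80 antigen (SE 0.40, limma adjusted p = 0.167) and 1.04 for C1qa, of complement C1q (SE 0.47, adjusted p = 0.132). Of 11 markers of alternatively activated macrophages 1 rose, Chil3 (1.04, adjusted p = 0.0484), a smaller share than the 14.2% over all genes. Mrc1 (0.13) and Arg1 (-0.81, SE 0.36, adjusted p = 0.13) were not called. Dendritic cell markers had 3 of 16 higher (18.8%, against 14.2% over all genes; median 0.51), and 0 higher and 1 lower after quantile normalization, with Batf3, a factor of cross-presenting cells, at 0.85 (adjusted p = 0.0175) and Flt3 at 0.43 (adjusted p = 0.222). Of 14 neutrophil markers 0 were called (median 0.05; 1 was lower after centering and 3 higher at the same FPKM sum), and the alarmin S100a8 was at 9.65, 36.4, 3.79 and 17.2 FPKM against 16.9, 5.69, 5.35 and 39.2 FPKM, with ranges that overlap nearly in full.

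Of 15 monocyte and neutrophil chemokines and cytokines 0 were called higher, although 12 had a change above 0 (median 0.23). The 1 called lower was Cxcl3 (chr5:90786101-90788093), a ligand of CXCR2. Its level was 16.7, 11.3, 8.02 and 13.3 FPKM in the anti-PD1 tumors and 0.89, 1.02, 2.32 and 5.22 FPKM in the combination tumors. The groups did not overlap, and the log2 change of -2.12 (SE 0.39, limma adjusted p = 0.00912) was called throughout. Ppbp, another CXCR2 ligand that platelets store and whose gene lies near Cxcl3 (chr5:90768518-90770063), fell by 1.71 (SE 0.31, adjusted p = 0.00857), from 2.09 to 8.66 FPKM to 0.63 to 1.19 FPKM, and was also called throughout. Thbs1, thrombospondin 1, an adhesion protein of platelets and macrophages, fell by 1.39 (SE 0.37, adjusted p = 0.0256) without overlap. Cxcl1 was under 1 FPKM in all anti-PD1 tumors and 3 of 4 combination tumors, and Ccl2 (0.17, adjusted p = 0.811) and Il1b (1.36, SE 0.50, adjusted p = 0.0734), were not called.

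The largest falls were those of red-cell genes. Hba-a1, an alpha globin, was at 55128, 29341, 8992 and 41769 FPKM in the anti-PD1 tumors and at 4529, 4129, 4418 and 4387 FPKM in the combination tumors. The combination tumors were within a narrow band below the lowest anti-PD1 tumor, and the log2 change was -2.68 (SE 0.47, limma adjusted p = 0.00808), or -1.41 after quantile normalization. Hba-a2, Hbb-bs and Hbb-bt changed by -2.65, -2.68 and -2.73 (Hba-a2 by -1.75 and Hbb-bs by -1.50 after quantile normalization), and since the copies within each globin pair are nearly identical, their reads may have been divided. Alas2, the erythroid enzyme of heme synthesis, changed by -2.48 (SE 0.46, adjusted p = 0.00952) and Bpgm, which makes 2,3-bisphosphoglycerate in red cells, by -1.33 (SE 0.29, adjusted p = 0.0143). Of 16 tested genes of the list 7 fell and 0 rose (median -1.09), and the 4 globins and Alas2 were called throughout. Hba-a1 was at 34700 ± 9720 FPKM in vehicle and 25900 ± 10800 FPKM in α-KG tumors (SD, n = 4).

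The other large falls were Aldh1a1, a retinaldehyde dehydrogenase (-1.44, limma adjusted p = 0.0227), Hspb1, a small heat-shock protein, and Clu, the secreted chaperone clusterin. Hspb1 went from 11.4 to 44.5 FPKM to 4.32 to 11.2 FPKM (log2 change -1.72, SE 0.36, adjusted p = 0.0127) and Clu from 3.46 to 6.37 FPKM to 1.54 to 2.51 FPKM (-0.88, SE 0.18, adjusted p = 0.011). Both were called throughout.

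Of 20 melanocyte lineage and pigment genes 2 fell and 0 rose (median -0.20). Tyrp1, an enzyme of melanin synthesis, was at 3005, 3172, 3161 and 3372 FPKM in the anti-PD1 tumors and 2087, 2205, 1846 and 2755 FPKM in the combination tumors, below them in every tumor, with a log2 change of -0.53 (SE 0.12, limma adjusted p = 0.0143). Slc45a2, a transporter of melanosomes, fell by 0.40 (SE 0.11, adjusted p = 0.0329), while Pmel (-0.22, adjusted p = 0.193) and Mlana (-0.20, adjusted p = 0.207) were not called. The summed level of the list was 11700 to 13700 FPKM in the anti-PD1 and 10400 to 12300 FPKM in the combination tumors. Rescaling to the same FPKM sum moved the median of the list to -0.01 and centering to -0.44 with 10 lower genes, so falls of this size depend on the scale.

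The cell cycle had 1 higher and 1 lower gene of 30 (median -0.11), and 16 lower genes after centering. Over all genes tested, 14.2% were called higher and 1.31% lower. Ccnb1, the mitotic cyclin B1, fell from 40.9 to 45.0 FPKM to 31.3 to 33.9 FPKM (log2 change -0.43, limma adjusted p = 0.0223), Cenpe, a kinesin of the kinetochore, rose by 0.80 (adjusted p = 0.0357), and Mki67, the proliferation antigen, was at 0.78 (SE 0.31, adjusted p = 0.0961). Of 27 glycolysis and hypoxia genes 3 fell, the glycolytic enzymes Eno1 (-0.41), Tpi1 (-0.37) and Ldha (-0.31), each without overlap, and the glucose transporter Slc2a1 was at -0.04. After centering 13 of the 27 were lower, and at the same FPKM sum 0 were lower and 2 higher. The stress-response list had 1 higher gene of 20, the factor Ddit3 (0.46, adjusted p = 0.0417), and its regulator Atf4 was at -0.12. Of 79 cytosolic ribosomal proteins 0 were called (median -0.14; 6 lower after centering and 3 higher at the same FPKM sum), Rplp0 being at -0.20.

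Among the enzymes that use or make α-KG, calls were scattered. Of 16 genes of the TET enzymes and DNA methylation 4 rose and 0 fell (median 0.43), where 14.2% of all genes were called higher. The leading ones by limma were Gadd45b, a stress-induced factor linked to DNA demethylation (0.91, adjusted p = 0.038), and Dnmt3a, a de novo DNA methyltransferase (0.48, adjusted p = 0.0474). Tet3 was at 5.68, 8.76, 8.61 and 6.26 FPKM in the anti-PD1 tumors and 8.93, 12.3, 10.2 and 10.3 FPKM in the combination tumors. Its groups did not overlap, and the log2 change of 0.47 (SE 0.16) missed the threshold (adjusted p = 0.0559). Tet2 had a change of 0.77 (SE 0.30, adjusted p = 0.087), with anti-PD1 tumors at 1.85, 7.09, 4.88 and 3.31 FPKM and combination tumors at 6.14, 9.26, 8.19 and 6.28 FPKM, and Tet1 one of 0.04 at under 1.2 FPKM. Tet2 ranked tumor 2 first and tumor 1 last in both groups, like Clk1. After quantile normalization or centering 0 of the 16 genes were higher and 1 was lower, and 9 were higher at the same FPKM sum.

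Of 23 histone lysine demethylases 3 rose (13.0%, against 14.2% over all genes; median 0.24), 1 after centering or quantile normalization and 13 at the same FPKM sum. Kdm6b, a demethylase of histone H3 lysine 27, was at 7.48, 12.1, 8.49 and 8.01 FPKM against 14.6, 14.4, 13.9 and 15.4 FPKM (log2 change 0.66, SE 0.17, limma adjusted p = 0.023), and α-KG tumors were at 14.6 ± 4.63 FPKM. Uty, the Y-linked relative of Kdm6a, rose by 0.82 (adjusted p = 0.0413). Of 26 other α-KG-dependent dioxygenases 0 were called (5 were lower after centering and 7 higher at the same FPKM sum). Of 35 genes of the citric acid cycle and α-KG metabolism 3 rose by small amounts, a smaller share than the 14.2% over all genes. Among them were D2hgdh, which turns D-2-hydroxyglutarate into α-KG (0.36, adjusted p = 0.0344), and Bcat2, the mitochondrial branched-chain aminotransferase (0.30, SE 0.06, adjusted p = 0.0121). Idh2 was at -0.19 (adjusted p = 0.118). After centering 0 of the 35 were higher and 11 lower, and at the same FPKM sum 7 were higher and 0 lower, so the direction of these calls turned with the scale. In the respiratory chain 4 of 52 genes fell, Ndufs8 and Atp5o by 0.27 each, and Cox4i1 was at 0.12. At the same FPKM sum 0 fell and 3 rose, and after centering 24 fell, with a median of -0.31.

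Skeletal muscle genes had 0 calls of 13, with a median of 1.50. Acta1, skeletal actin, was at 0.22, 0.18, 0.34 and 0.39 FPKM in the anti-PD1 tumors and 23.4, 14.4, 0.41 and 0.42 FPKM in the combination tumors. Muscle RNA was higher in combination tumors 1 and 2, whose list sums were 138 and 79.5 FPKM, against 3.39 to 7.27 FPKM in the other 6 tumors compared; its part in the other results was not tested. Of 14 fibroblast genes only Thy1 was called, which T cells share, and Col1a1 was at 0.47 (adjusted p = 0.238). Of 7 endothelial markers Egfl7 fell by 0.51 (adjusted p = 0.043) and Pecam1 was at 0.52 (adjusted p = 0.169). Keratinocyte genes summed to 2.73 to 6.66 FPKM in these 8 tumors, and the 3 tested adipocyte markers had 0 calls.

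**Figure D4:**
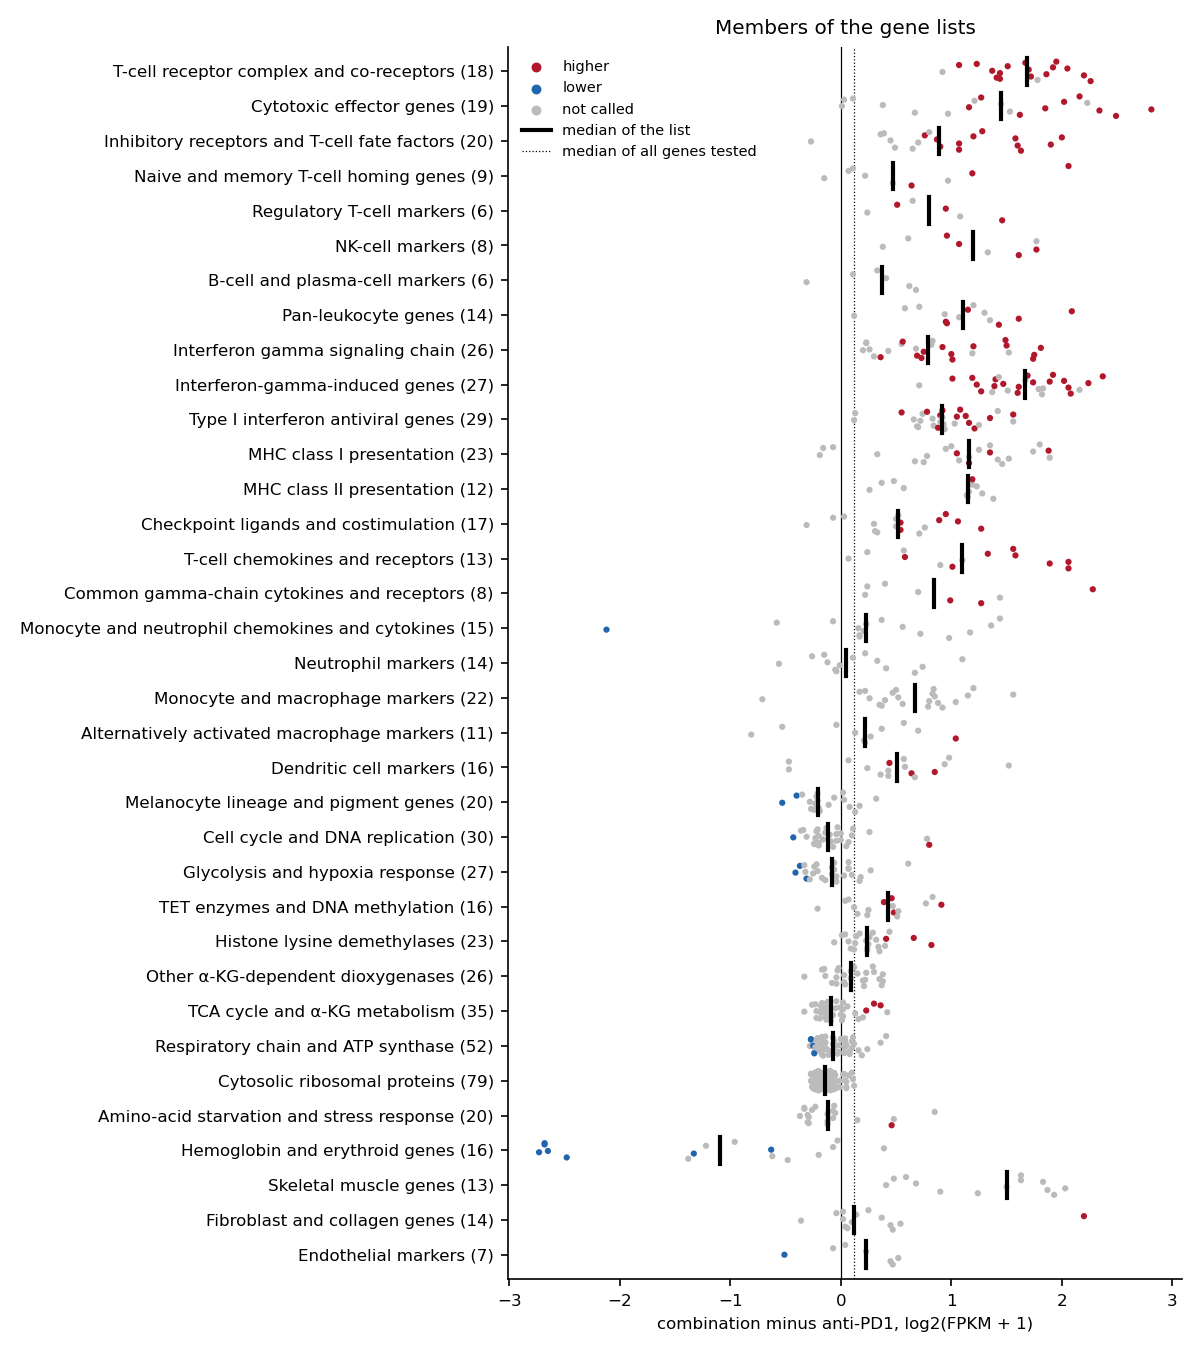
Log2 change of each tested member of the gene lists with at least 5 tested members, α-KG + anti-PD1 minus anti-PD1, 1 point a gene, with red for called higher, blue for called lower, gray for not called and a black bar at the list's median. T-cell, cytotoxic and interferon lists lie to the right of the median of all genes (dotted, 0.12), erythroid genes to the left, and lists of metabolism and ribosomes close to 0.

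Whether α-KG acted alike with and without the antibody was tested by the interaction, the change from anti-PD1 to the combination minus that from vehicle to α-KG. It was called for 1429 genes, positive in 1027 (7.99%) and negative in 402 (3.13%), and 600 of them were also called in the comparison above. The median change with α-KG alone was -0.04. Of 14 neutrophil markers 13 had a negative interaction, and their median change was 3.94 from vehicle to α-KG and 0.05 from anti-PD1 to the combination. S100a8 was at 713 ± 267 FPKM in the α-KG and 9.80 ± 3.86 in the vehicle tumors (interaction -6.09, SE 0.86, limma adjusted p = 0.00057). Cxcl3 was at 200 ± 119 FPKM after α-KG alone and 3.65 ± 1.40 FPKM in vehicle tumors, higher with α-KG without the antibody and lower with it (interaction -7.46, SE 0.55, adjusted p = 6.41e-06). Thbs1 had the same directions, with 126 ± 55.4 FPKM after α-KG alone and 6.82 ± 4.73 FPKM in vehicle tumors (interaction -5.50, SE 0.52, adjusted p = 2.08e-05).

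Other genes were higher with α-KG in both settings by unequal amounts. Ccl3 reached 528 ± 177 FPKM in α-KG and 80.4 ± 35.9 FPKM in combination tumors (interaction -4.18, SE 0.44, limma adjusted p = 3.67e-05), Gadd45b 85.7 ± 31.6 and 13.4 ± 5.00 FPKM (-3.24, adjusted p = 0.000127) and Tnf 31.0 ± 14.2 and 8.85 ± 5.59 FPKM (-2.53, adjusted p = 0.0189). The T-cell receptor list had 0 of 18 interactions called, with a median change of 0.50 from vehicle to α-KG and 1.69 from anti-PD1 to the combination, and the interferon-gamma-induced list had 1 of 27 called, with medians of 0.19 and 1.67. For these genes a difference between the settings was not shown, and the standard errors were wide: the interaction of Gzmb was 2.07 with an SE of 1.03 (adjusted p = 0.193) and that of Gbp4 2.64 with an SE of 1.00 (adjusted p = 0.0939). Klf2 (-0.18, SE 0.31) and Kdm6b (-0.08, SE 0.24) had interactions close to 0. Muscle genes had 12 of 13 positive interactions, with Acta1 at 85.9 ± 130 FPKM in vehicle and 0.340 ± 0.212 FPKM in α-KG tumors.

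**Figure D5:**
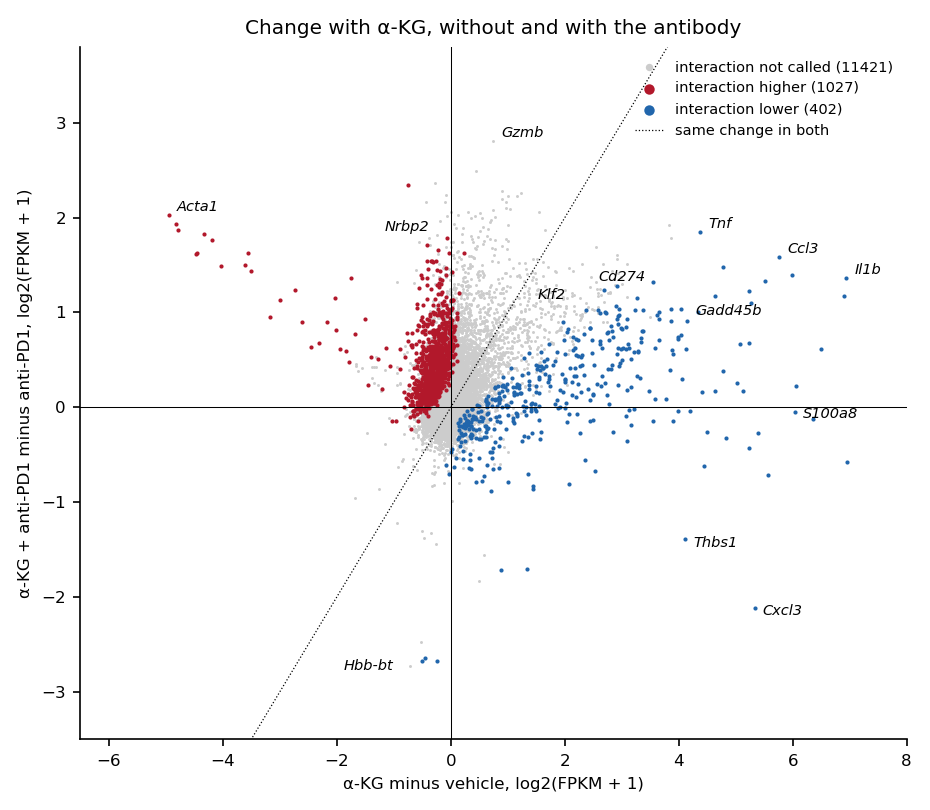
Change of each tested gene in log2(FPKM + 1) from vehicle to α-KG (horizontal axis) and from anti-PD1 to α-KG + anti-PD1 (vertical axis), with genes whose interaction was called in red (positive) and blue (negative) and a dotted line where both changes are equal. S100a8, Cxcl3 and Thbs1 lie far to the right with little or negative change on the vertical axis, Il1b lies at the far right with a change of 1.36 on it, muscle genes such as Acta1 lie at the upper left, and Gzmb has the largest change on the vertical axis.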

How the data were processed

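Stranded libraries (oligo dT selection, dUTP method) were made from total RNA of 16 tumors and read on the DNBSEQ platform. The authors deposited FPKM values for 18929 genes. Per the labels, the submitters' processing notes name HISAT, Bowtie2 and mm10, and a normalization between tumors is not given in the sources used here. FPKM hold no counts, so low values have unknown precision, and a value is relative to its library.

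Groups came from the tumors' titles, and no tumor was left out. Values were changed to log2(FPKM + 1), which understates the change of low genes, and genes with at least 0.5 FPKM in at least 4 tumors were tested. One mean per group was fitted to 16 tumors with limma 3.58.1 (trend) in R 4.3.3, with Benjamini-Hochberg adjustment over 12850 genes and a threshold of 0.05. On simulated data of this comparison over 12850 genes, 94% of genes changed by 1 and 99% of those changed by 2 (log2) were recovered, and 4.46% of 202 calls were false. Whether these rates hold for the measured tumors, where calls fell to 228 without anti-PD1 tumor 1, was not tested. The alternatives were a pseudocount of 0.1, no filter and 4 scalings (quantile, tumor medians, same FPKM sum, same sum without hemoglobin genes). Further alternatives were the 2 compared groups alone, a replicate block and each tumor left out.

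Named genes were the 12 largest rises and falls among called genes without overlap and with a higher group mean of 1 FPKM or more, the lead gene or genes of each list, up to 2 called members of each list in each direction, and 9 genes chosen after their values were seen (Ctla4, Ccl3, Clk1, Ccnl2, Rsrp1, Pnisr, Srsf5, Srrm2 and Luc7l3). The comparison and the gene lists were chosen with earlier results of these data known. Promoters and positions are from RefSeq (GRCm38.p6). Tables and figures used Python 3.11.15, pandas 2.3.3 and matplotlib 3.10.9.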

Additional observations from a re-analysis of the deposited data

Results flagged for a closer look

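The groups of 4 tumors looked at were those of the named genes and of a few whole-tumor measures, such as the FPKM sum. In 3 of these 246 groups (1.22%, where chance gives about 1 in 20 groups), 1 tumor stood far from the other 3. Egfl7 was lowest in anti-PD1 tumor 2 at 12.9 FPKM, Ltb highest in anti-PD1 tumor 3 at 3.86 FPKM, and Ndufs8 lowest in anti-PD1 tumor 2 at 76.8 FPKM.

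For 28 named genes the change with α-KG differed between tumors with and without the antibody by the limma interaction (adjusted p under 0.05). Negative values, on the log2 scale, were found for the chemokines and cytokines Cxcl3 (-7.46), Il1b (-5.58), Ccl3 (-4.18), Ppbp (-3.05), Tnf (-2.53) and Cxcl1 (-2.28), and for S100a8 (-6.09), Thbs1 (-5.50), Gadd45b (-3.24), Arg1 (-2.89), Hspb1 (-2.60) and Clu (-1.59). The globins Hbb-bs (-2.44), Hba-a2 (-2.19) and Hba-a1 (-2.17) and the pigment genes Tyrp1 (-0.62) and Mlana (-0.56) were negative too. Positive values were found for Acta1 (6.98), Sdr39u1 (2.12), Nrbp2 (1.86), Srrm2 (1.81), Mki67 (1.55), Srsf5 (1.47), Ctla4 (1.40), Cenpe (1.28), Ddit3 (0.96), D2hgdh (0.61) and Bcat2 (0.35).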

How the results depend on the processing

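With the 2 compared groups alone, 0 genes were called higher and 0 lower. At the same FPKM sum 4234 were called (4198 higher, 36 lower), after centering on tumor medians 802 higher and 1968 lower, and after quantile normalization 721 higher and 1082 lower. For the interaction these scalings gave 2394 calls (2110 higher) at the same sum, 389 higher and 633 lower after centering, and 569 higher and 559 lower after quantile normalization. With a replicate block 1533 genes were called, 1431 higher and 102 lower. The correlations of deviations between tumors with the same number were -0.12, 0.14, 0.41 and 0.25. Since 1 was below 0.1 and no label ties the numbers to a shared batch, they were not taken to pair tumors, and 2 of 4 combination tumors correlated best with their own number. Leaving out 1 tumor gave 228 to 2937 calls (202 to 2626 higher, 26 to 311 lower) and 699 to 2362 interactions (422 to 1865 higher, 277 to 497 lower). A pseudocount of 0.1 gave 1489 calls and no filter 1395.

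Of the 120 named genes 87 were called, and 0 of these changed direction under any alternative. Many genes were named for being called and the alternatives reuse the same tumors, so kept directions are weak support. Of the 87, 0 stayed called in the 2 compared groups alone, 17 without anti-PD1 tumor 4 and 19 without anti-PD1 tumor 1. Without combination tumor 3 there were 20, and without combination tumor 1 there were 37. Signs changed for uncalled genes near 0. At the same FPKM sum Atf4 was 0.07, S100a8 0.13 and Slc2a1 0.15. After centering, Ccl2 was -0.06, Cox4i1 -0.12, Il7r -0.01, Mrc1 -0.10 and Tet1 -0.19, and after quantile normalization Il7r was -0.07, Mrc1 -0.10, Pmel 0.03 and Tet1 -0.16. With 1 tumor left out, Ccl2 ranged from -0.09 to 0.35, Cxcl1 from -0.40 to 0.10 (0.04 without combination tumor 1), S100a8 from -0.58 to 0.44 (0.09, 0.28 and 0.31 among the rest), Slc2a1 up to 0.04 (0.01 and 0.02 among the rest), and Tet1 from -0.04 to 0.12. The causes were not tested. Without read counts, the precision of values under about 1 FPKM is unknown.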
